A study of Homo sapiens with 6 samples.

Results

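The 10 genes described here belong to the epidermal growth factor (EGF) family and were measured in KGN cells: 6 ligands (HBEGF, AREG, EREG, TGFA, BTC and NRG1) and 4 receptors (EGFR, ERBB2, ERBB3 and ERBB4). All 10 of 10 listed symbols were found, each with 1 Ensembl gene ID, among the 58336 gene IDs of the deposited tables. KGN is an established line from a human ovarian granulosa cell tumour and is heterozygous for a mutation of FOXL2, which encodes a forkhead transcription factor that keeps granulosa cell identity. The FOXL2 WT/WT group held the libraries 44a, 4.72 and 4.72-44a, in which CRISPR/Cas9 had reverted the C134W mutation. The FOXL2 WT/C134W group held 3.11, 44b and 3.11-44b, for which the labels record no editing. Every RNA sample was collected 30 h after transfection, with no record in the labels of what was transfected. Because 4.72-44a and 3.11-44b have titles made from 2 clone names, the test between genotypes used the 4 libraries named for 1 clone, 2 per genotype. A clone is the descent of 1 cell, so a value shared by both clones of a genotype rests on 2 such descents, and reversion and the editing procedure cannot be told apart. The labels do not say whether a library came from more than 1 culture, so p-values measure only the spread between these libraries.

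EGF-like ligands are made as membrane-anchored precursors and are cut loose by metalloproteases of the ADAM family. HB-EGF, amphiregulin, epiregulin, TGF-alpha and betacellulin bind the EGF receptor, HB-EGF, betacellulin and epiregulin also bind ERBB4, and the neuregulins bind ERBB3 and ERBB4. ERBB2 has no known ligand and pairs with the other receptors, while ERBB3 has a weak kinase and signals through its partner. In the ovary, granulosa cells respond to the luteinising hormone surge by making amphiregulin, epiregulin and betacellulin, which pass the signal on to the cumulus cells around the oocyte.

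Summed expected counts (RSEM's estimate of reads per gene) ran from 35332727 to 46613068 per library, and 3 counts, the limit that a count of 0 allows, equalled 0.0644 to 0.0849 CPM (counts scaled by library size). FOXL2 itself was listed at 2.17 to 5.48 TPM (a transcript level scaled for gene length and to the same total in each library). It had 3.70, 2.36 and 2.17 TPM in 44a, 4.72 and 4.72-44a, against 5.25, 5.48 and 3.47 TPM in 3.11, 44b and 3.11-44b. The single clones were thus apart, higher in WT/C134W, and the 6 libraries overlapped (log2 fold change 0.67 ± 0.34, adjusted p = 0.726 in edgeR on the single clones). Gene-level counts of FOXL2 cannot tell the alleles apart. Of 14 granulosa markers, 5 (WT1, GATA4, FSHR, LHCGR and AMHR2) were at 0 in all 6 libraries. INHA, CYP19A1 and CYP11A1 were near 0, at no more than 0.6 TPM in any library. NR5A1 stood at 19.37 to 26.69 TPM and AMH at 18.01 to 44.39. INHBA ran from 51.41 to 62.12 TPM in WT/WT and from 23.72 to 42.51 TPM in WT/C134W. INHBB had 4.68 to 9.89 against 3.26 to 4.1 TPM, while STAR went the other way, 2.01 to 2.86 against 3.89 to 6.47 TPM. Of the 7 granulosa markers tested, 3 were higher and 4 lower in WT/C134W. Part of the granulosa programme was thus measured, and the receptors for the gonadotropins were not detected. Summed granulosa markers ran from 108.5 to 125.2 TPM in WT/WT and from 75.4 to 125.5 TPM in WT/C134W. Markers of other cell types gave summed levels of 9.68 to 14.7 against 10.4 to 20.8 TPM for 5 leukocyte genes (CD3E at 0 throughout) and of 0.59 to 2.96 against 1.49 to 5.17 TPM for 5 endothelial genes (CDH5 at 0 throughout). For 6 epithelial genes, mainly KRT7, the sums were 68.3 to 118.9 against 56.7 to 80.6 TPM. For 5 fibroblast genes, mainly COL1A1, they were 7475 to 9196 in WT/WT and 4343 to 5064 in WT/C134W. The fibroblast sum was lower in every WT/C134W library, as HBEGF was, and it follows COL1A1 (6824.85 to 8632.34 against 3816.33 to 4492.75 TPM). Between the single clones 4 of the 5 fibroblast genes were lower in WT/C134W and 1 was higher, with a median log2 fold change of -1.16. LUM stood at -2.83, DCN at -1.71 and THY1 at -0.41. In normalised counts of these clones LUM and THY1 did not overlap between genotypes and DCN did. In TPM LUM, DCN and THY1 all overlapped, with LUM at 6.56 and 2.06 in 44a and 4.72 against 0.05 and 2.77 in 3.11 and 44b. LUM had low counts, with 4 expected counts in 3.11. PDGFRA, a receptor for platelet-derived growth factor, was the higher gene. It ran from 9.32 to 13.94 TPM in WT/WT and from 13.86 to 21.84 TPM in WT/C134W. The part of these markers in the HBEGF difference was not tested.

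HBEGF was the member with the clearest separation between genotypes, and its 5′ sequence is shown because the results turn on it. The gene (ENSG00000113070) lies on chromosome 5 from 140332843 to 140346631 on the minus strand (GRCh38, GENCODE 29). The 250 bases before its RefSeq start, chr5:140346604-140346853 on the minus strand (GRCh38.p14), read 5′ to 3′ as follows.
HBEGF: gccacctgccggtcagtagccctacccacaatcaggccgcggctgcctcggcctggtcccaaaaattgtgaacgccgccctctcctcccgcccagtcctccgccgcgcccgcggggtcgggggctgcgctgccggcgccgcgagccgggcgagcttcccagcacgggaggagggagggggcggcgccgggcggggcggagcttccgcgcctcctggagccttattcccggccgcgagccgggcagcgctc
These bases are 76.4% G or C, against a median of 58.0% over 34788 distinct windows of the same length, and hold 33 CpG dinucleotides. A search of both strands for 3 motifs found none of them in this window: TGANTCA (the AP-1 site), GTAAACA (a forkhead core) and GCGNGGGCG (the EGR1 site). No match in any member window overlapped a match to another of these motifs. Of all windows, 6.59%, 2.98% and 8.41% hold a match to these letters. The absence of a match concerns these letters in this window and nothing else.

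The HBEGF transcript was lower in all WT/C134W libraries. Its expected counts were 1211 in 44a, 1118 in 4.72 and 1309 in 4.72-44a, against 317 in 3.11, 315 in 44b and 299 in 3.11-44b. As TPM the WT/WT libraries held 16.97, 17.05 and 21.15, against 5.36, 5.52 and 5.29 for those with the mutation. The genotypes did not overlap. Over the single clones the mean was 17.0 ± 0.0566 TPM in WT/WT and 5.44 ± 0.113 TPM in WT/C134W (SD, n = 2). As a log2 fold change of WT/C134W relative to WT/WT, in which sense all fold changes here are given, this was -1.91 ± 0.20 (SE from edgeR's F value). That is a 3.77-fold lower level with a 95% interval of 2.66-fold to 5.32-fold. The ratio of mean TPM, which carries no TMM factor, was 0.32. The unadjusted p of HBEGF in edgeR's quasi-likelihood test, 0.000104, was the third smallest of 16416 genes, and its Benjamini-Hochberg adjusted p was 0.439. HBEGF therefore did not pass the threshold of 0.05, and neither did any other gene: the share called was 0%, and 7.57% of genes (1243) had an unadjusted p under 0.05. Limma voom also called 0 genes. HBEGF was already known from an earlier look at these clones as a gene of small p, so its p adds no separate support.

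Of the alternative fits, 3 called HBEGF. With the joined libraries added as replicate 3 its adjusted p in edgeR was 0.00192, in a fit that called 3.18% of genes and takes those libraries as further clones. DESeq2 on the 4 clones gave 1.33e-09 and called 2.04% of genes, and edgeR without the low-count filter gave 2.14e-08 and called 2.73%. Over all 15 alternatives the adjusted p ran from 1.33e-09 to 0.999 and the log2 fold change from -1.98 to -1.48. Leaving out 1 clone at a time moved the fold change only from -1.98 to -1.85, but a fit on 3 clones gave adjusted p-values of 0.243 to 0.999.

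**Figure D1:**
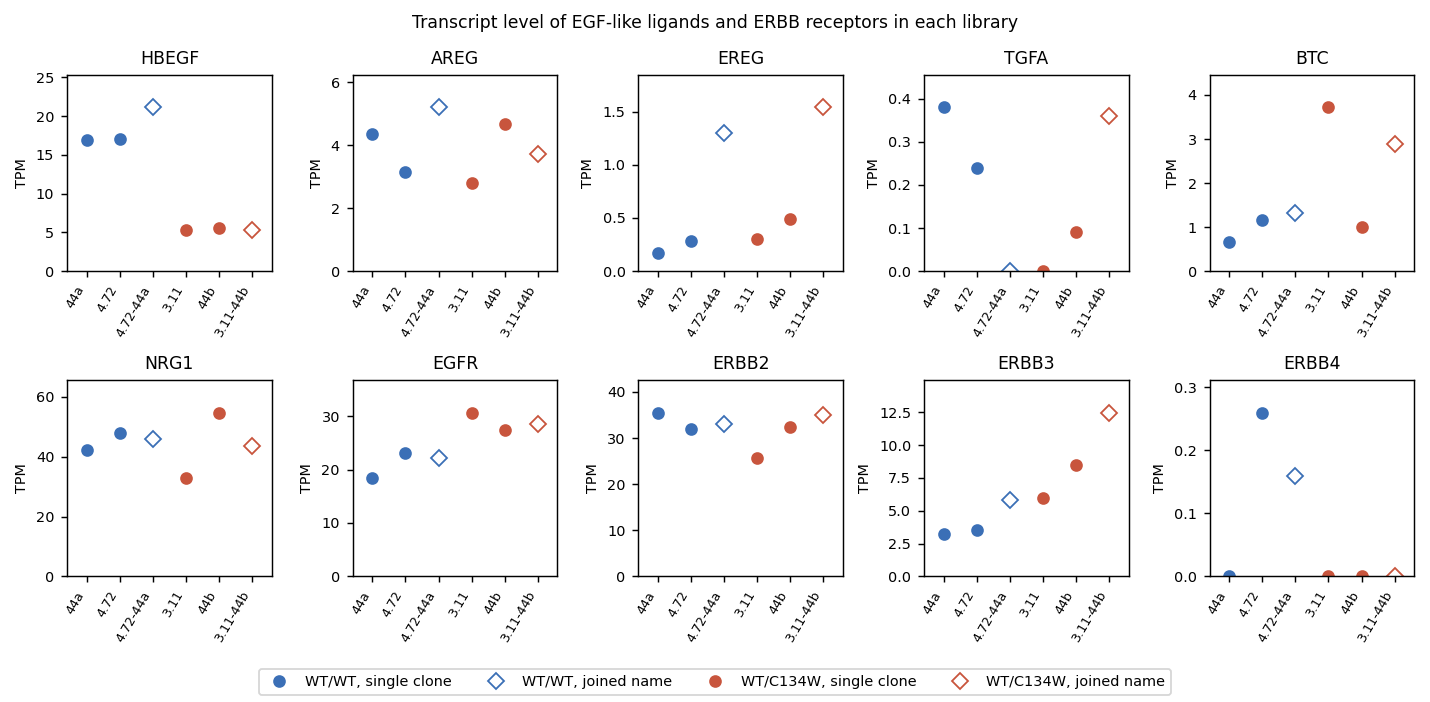
TPM of each ligand and receptor (vertical axes, each from 0) in the 6 libraries (horizontal axis), with single clones as filled circles and joined names as open diamonds, WT/WT in blue and WT/C134W in red. HBEGF lies between 16.97 and 21.15 TPM in WT/WT and between 5.29 and 5.52 TPM in WT/C134W. The genotypes overlap for AREG, EREG, TGFA, BTC, NRG1, ERBB2 and ERBB4.

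NRG1, neuregulin 1, was the most abundant ligand per length in all 6 libraries, with a mean of 44.6 TPM. Its level was 42.17 TPM in 44a, 48.08 in 4.72 and 45.99 in 4.72-44a, against 32.95 in 3.11, 54.75 in 44b and 43.41 in 3.11-44b. In TPM the 2 mutant clones stood at the lowest and the highest level of the series, with all WT/WT libraries between them. This did not hold in counts. As TMM-normalised CPM (scaled over the 6 libraries) NRG1 had 94.3, 114.6 and 106.2 against 58.6, 105.8 and 83.5 in the same order. There 3.11 was again the lowest, but 4.72 was the highest and the genotypes overlapped. The log2 fold change was -0.34 ± 0.30 (95% interval -1.08 to 0.40, adjusted p = 0.869 in edgeR). It was 0.02 without 3.11 and -0.83 without 44b, so its direction rested on single clones.

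AREG, amphiregulin, and EREG, epiregulin, were present at low levels. AREG had 4.36, 3.14 and 5.21 TPM in 44a, 4.72 and 4.72-44a and 2.8, 4.67 and 3.72 TPM in 3.11, 44b and 3.11-44b. The genotypes overlapped, and the log2 fold change of -0.16 ± 0.54 (adjusted p = 0.985 in edgeR) had a 95% interval from -1.50 to 1.17. Its sign changed with library totals as the only scaling (0.06), without 44a (0.06) and without 3.11 (0.19). EREG had expected counts of 7, 37 and 60 in 44a, 4.72 and 4.72-44a, against 35, 53 and 37 in 3.11, 44b and 3.11-44b, with 44a the lowest. Its log2 fold change of 0.91 (95% interval -1.93 to 3.75, adjusted p = 0.916 in edgeR) was 0.13 without 44a and 2.65 without 4.72.

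BTC, betacellulin, was set apart in 1 clone. It had 0.67, 1.16 and 1.32 TPM in 44a, 4.72 and 4.72-44a, against 3.72 in 3.11, 1.01 in 44b and 2.89 in 3.11-44b. Its expected counts were 57, 93 and 99 against 224, 78 and 92, so 3.11-44b was above the WT/WT libraries in TPM but not in counts. The gene length that RSEM weights by transcript abundance was 1412 bases in 3.11-44b and 2816 bases in each WT/WT library. The clone 3.11 was highest, and 44b lay among the WT/WT libraries. The log2 fold change was 0.99 ± 0.72 (95% interval -0.80 to 2.78, adjusted p = 0.827 in edgeR) and -0.06 without 3.11. AREG, EREG and BTC lie with EPGN, the gene of epigen, within 486.2 kb on chromosome 4. Their genotypes overlapped in normalised counts for all 3, and EPGN had no count in any library. Of the promoter windows of the members, that of BTC holds 1 match to the forkhead letters. It is on the strand opposite to the gene, 231 bases before the RefSeq start, which lies inside the GENCODE gene.

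TGFA, TGF-alpha, did not pass the low-count filter and was not tested in the fit of the 4 clones. Its expected counts were 42, 8 and 0 in 44a, 4.72 and 4.72-44a and 0, 9 and 25 in 3.11, 44b and 3.11-44b. Both genotypes thus held a library at 0 and a library with more than 20 counts. The joined library of WT/WT, at 0, lay below both clones it names, and that of WT/C134W above both of its own.

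Among the ligands, HBEGF was second to NRG1 in all 3 WT/WT libraries and in every WT/C134W library, but by different margins. It took 26.2%, 24.4% and 28.2% of the summed ligand TPM in 44a, 4.72 and 4.72-44a, and 11.9%, 8.30% and 9.25% in 3.11, 44b and 3.11-44b. NRG1 took 65.2%, 68.7% and 61.3% against 73.0%, 82.3% and 75.9%. Neither share overlapped between genotypes. These shares are within a library, so a scaling factor common to all genes does not enter them, but a smaller share of HBEGF by itself leaves larger shares to the other ligands. The summed TPM of the 6 ligands was 64.72, 69.95 and 74.97 in 44a, 4.72 and 4.72-44a, against 45.13, 66.53 and 57.21 in 3.11, 44b and 3.11-44b.

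**Figure D2:**
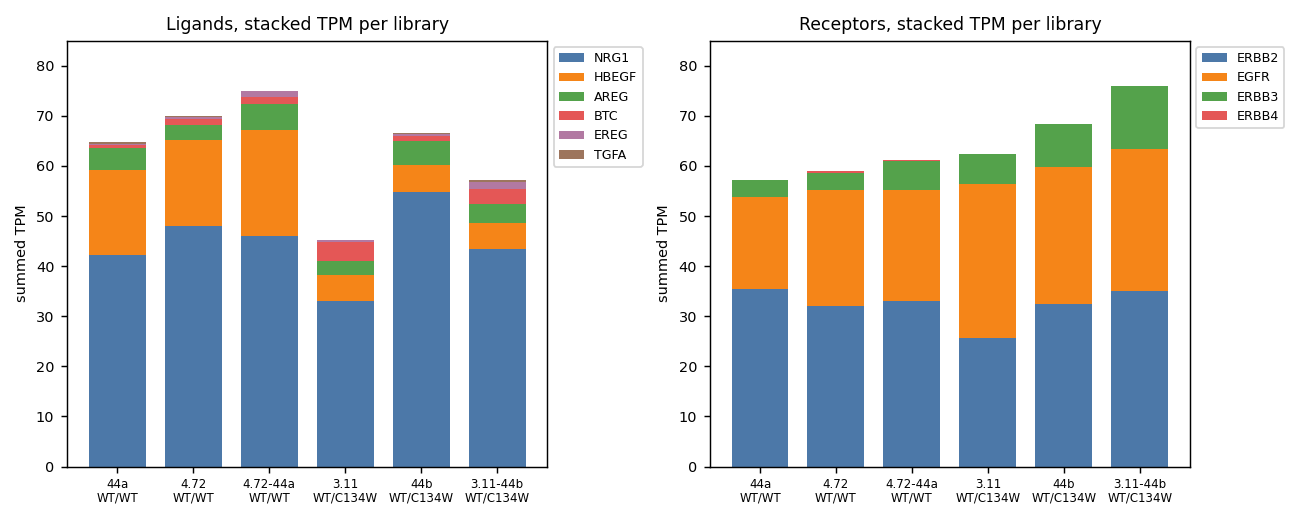
Stacked bars of TPM (vertical axis, from 0) of the 6 ligands (left) and the 4 receptors (right) in each library (horizontal axis). The HBEGF segment takes 24.4% to 28.2% of the ligand sum in WT/WT and 8.30% to 11.9% in WT/C134W, and EGFR exceeds ERBB2 in 3.11 but in no other library.

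ERBB2 and EGFR were the most abundant receptors, and neither passed the test between genotypes. EGFR (ENSG00000146648, chromosome 7, 55019021 to 55211628, plus strand, GRCh38) encodes the EGF receptor. It had 18.34, 23.14 and 22.11 TPM in 44a, 4.72 and 4.72-44a, against 30.66, 27.44 and 28.52 TPM in 3.11, 44b and 3.11-44b. Every WT/C134W library was above every WT/WT library. The log2 fold change was 0.36 ± 0.17, a 1.28-fold difference with a 95% interval of 0.957-fold to 1.72-fold (unadjusted p = 0.0819, adjusted p = 0.702 in edgeR). With library totals as the only scaling, which moved the median of all genes from 0.005 to 0.23, it was 0.59 (adjusted p = 0.416). Leaving out 1 clone at a time gave 0.20 to 0.51.

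The 2 annotated start regions of EGFR are shown because they differ in composition and because EGFR is the 1 receptor whose genotypes were apart on both scales in all 6 libraries. The first window is chr7:55018767-55019016 and the second, downstream within the gene, is chr7:55109589-55109838, both on the plus strand of GRCh38.p14 from RefSeq and read 5′ to 3′, with matches to TGANTCA in capitals.
EGFR, first start: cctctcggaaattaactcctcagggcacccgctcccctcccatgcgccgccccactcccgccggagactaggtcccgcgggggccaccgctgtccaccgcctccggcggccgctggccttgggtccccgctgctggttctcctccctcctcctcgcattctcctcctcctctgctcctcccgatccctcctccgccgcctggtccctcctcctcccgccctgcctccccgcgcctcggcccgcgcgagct
EGFR, second start: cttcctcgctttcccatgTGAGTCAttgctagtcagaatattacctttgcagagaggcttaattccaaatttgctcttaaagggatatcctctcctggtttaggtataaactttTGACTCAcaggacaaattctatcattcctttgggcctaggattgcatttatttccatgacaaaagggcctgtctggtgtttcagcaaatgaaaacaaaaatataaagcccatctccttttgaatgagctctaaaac
The first window is 73.6% G or C with 25 CpG dinucleotides and holds no match to the 3 motifs. The second is 38.8% G or C with 1 CpG and holds 2 matches to the AP-1 letters, 232 and 136 bases before the start. The gene tables do not separate transcripts by start, so the values of EGFR cannot be assigned to either window. The RefSeq table had windows for 8 of the 10 members, and ERBB3 and NRG1 were not matched.

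ERBB2 (ENSG00000141736, chromosome 17, 39687914 to 39730426, plus strand) was the most abundant receptor per length in 5 of the 6 libraries. Its level was 35.53, 32.02 and 33.03 TPM in 44a, 4.72 and 4.72-44a, against 25.75, 32.40 and 34.95 TPM in 3.11, 44b and 3.11-44b. TPM overlapped between genotypes, whereas TMM-normalised counts did not: 97.8, 88.6 and 82.1 CPM (scaled over the 6 libraries) against 59.8, 79.3 and 70.4 CPM. The log2 fold change was -0.42 ± 0.19 (95% interval -0.89 to 0.05, unadjusted p = 0.0724, adjusted p = 0.694 in edgeR). It was -0.64 without 44b, -0.23 without 3.11 and -0.20 with library totals alone. ERBB2 overlaps 2 genes of the opposite strand, MIEN1 and PGAP3, and reads of the overlap are uncertain because the strand setting of the counting is not given in the sources used here. Its promoter window, chr17:39687844-39688093, ends at a RefSeq start that lies inside the gene as given above. It holds 1 match to the AP-1 letters, 222 bases before that RefSeq start.

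ERBB3, a receptor of neuregulins, looked different in TPM and in counts. As TPM it had 3.25, 3.50 and 5.84 in 44a, 4.72 and 4.72-44a and 5.99, 8.46 and 12.48 in 3.11, 44b and 3.11-44b, so that the genotypes did not overlap. As TMM-normalised CPM it had 8.28, 7.61 and 8.81 against 5.17, 12.3 and 10.9, so that 3.11 was the lowest library and 44b the highest. TPM divides the count by a gene length that RSEM weights by the estimated abundance of each transcript, and these lengths differed between libraries. They were 3681, 3069 and 2238 bases in 44a, 4.72 and 4.72-44a, against 1515, 2332 and 1485 bases in 3.11, 44b and 3.11-44b, among 23 annotated transcripts of 237 to 5919 bases. Over the single clones the TPM ratio was 2.14, the ratio of library-scaled counts 1.29 and the ratio of effective lengths 0.547. The log2 fold change in counts was 0.14 ± 0.46 (95% interval -0.997 to 1.28, adjusted p = 0.983 in edgeR), 0.64 without 3.11 and -0.62 without 44b. On log2(TPM + 1) limma gave 0.89 (adjusted p = 0.52). Which transcripts of ERBB3 were present was not measured separately in the gene tables.

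**Figure D3:**
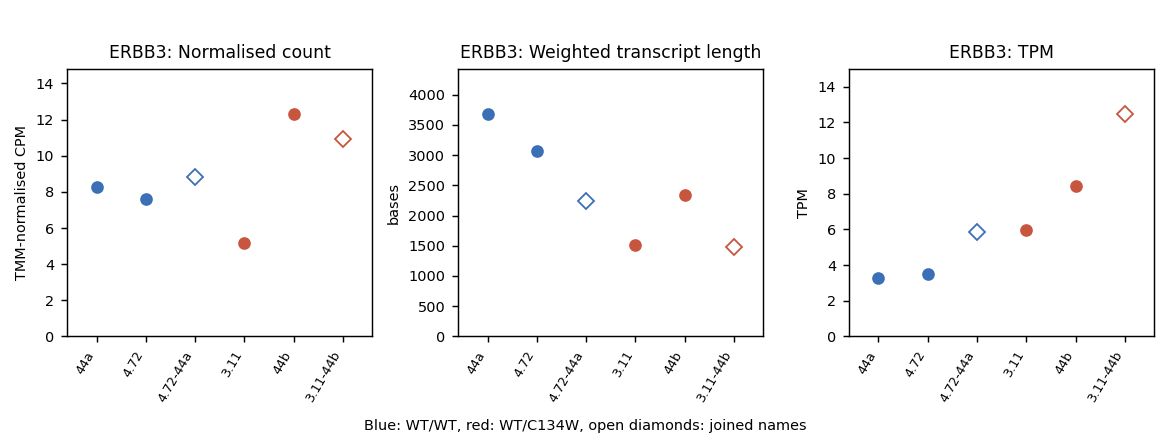
ERBB3 in the 6 libraries (horizontal axes) as TMM-normalised CPM (left), as RSEM's abundance-weighted transcript length in bases (middle) and as TPM (right), WT/WT in blue and WT/C134W in red. The genotypes overlap on the left, with 3.11 lowest at 5.17 CPM, and are apart on the right, where WT/C134W spans 5.99 to 12.48 TPM.

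ERBB4, which binds neuregulins, HB-EGF and betacellulin, was nearly absent and did not pass the low-count filter. It had 11 expected counts in 4.72 and 9 in the joined library 4.72-44a, and 0 in 44a, 3.11, 44b and 3.11-44b. The counts thus came from the clone 4.72 and the library whose title includes it. Of the 10 members, 8 passed the filter and 2, TGFA and ERBB4, did not.

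**Figure D4:**
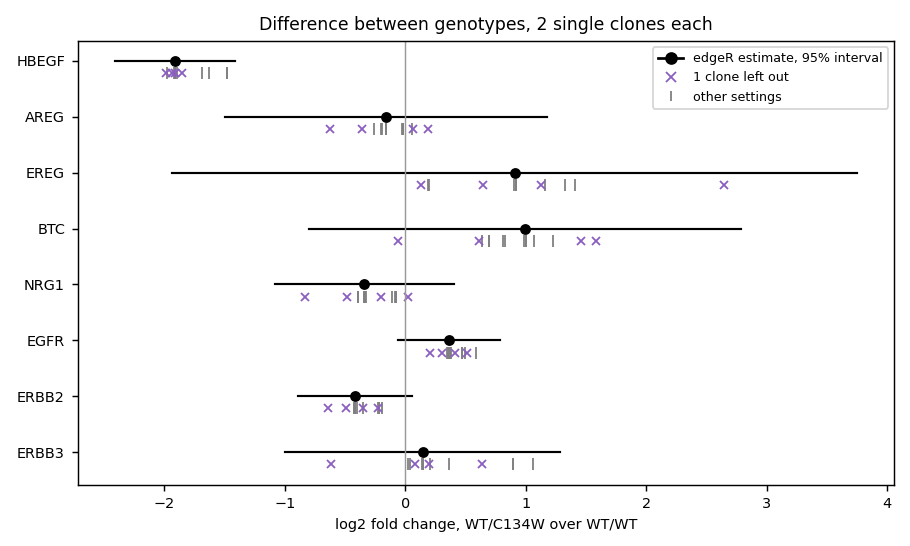
Log2 ratio of WT/C134W to WT/WT (horizontal axis) of the 8 tested members, as the edgeR estimate with its 95% interval (black), with 1 clone left out (crosses) and under the other settings (ticks). The interval of HBEGF runs from -2.41 to -1.41, and the intervals of the other 7 members include 0.

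Set beside all genes, the members did not stand out as a group. Of the 8 tested, 4 had a positive and 4 a negative log2 fold change with a median of -0.01, against 8309 positive, 8107 negative and a median of 0.01 over the 16416 genes tested. Only HBEGF, 1 of the 8, had an unadjusted p below the threshold, against 7.57% of all genes (4.7% lower and 2.88% higher in WT/C134W). The genotypes did not overlap in normalised counts of the 4 clones for 3 of the 8 (HBEGF and ERBB2 lower, EGFR higher), against 39.6% of all genes, so this count is near the background. Over all 6 libraries the same 3 were apart, 2 lower and 1 higher, beside 14.1% and 12.1% of all genes.

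The joined libraries lay close to the clones they name for some members and not for others. Relative to the mean of the 2 clones, 4.72-44a stood at 1.02 for NRG1 and 1.03 for EGFR, and 3.11-44b at 1.02 and 0.989. HBEGF in 4.72-44a, at 33.6 CPM, was above both 44a (27.3 CPM) and 4.72 (27.8 CPM), 1.22 times their mean. Of the 8 tested members, 6 in 4.72-44a and 1 in 3.11-44b lay outside the range of the 2 clones in CPM, beside 50.4% and 50.9% of all 16416 genes tested.

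Around the members, the pathway was described with 7 lists of 59 genes by role, of which 57 were tested. In edgeR's test 0 of the 57 passed over all genes, 31 had a positive and 26 a negative log2 fold change, and the median was 0.03. Unadjusted p-values were under 0.05 for 3 genes with higher and 4 with lower levels in WT/C134W, beside 2.88% and 4.7% of all genes. The genotypes were apart in normalised counts for 27 of the 57, 15 higher and 12 lower, beside 19.9% and 19.7% of all genes.

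Of the 5 other ligands, EPGN and NRG3 had no count in any library. The other 3 had positive log2 fold changes (median 0.92). NRG2, neuregulin 2, had 1.32 and 1.54 TPM in 44a and 4.72 against 3.24 and 3.28 TPM in 3.11 and 44b, with a log2 fold change of 0.92 ± 0.62 (adjusted p = 0.804). The joined libraries went the other way, with 2.92 TPM in 4.72-44a and 1.42 TPM in 3.11-44b. EGF itself had 1.38 and 0.75 TPM against 2.13 and 2.24 TPM, and the joined libraries had 1.15 TPM (4.72-44a) and 1.14 TPM (3.11-44b), so the genotypes overlapped over the 6 libraries. NRG4 had between 0 and 23.3 expected counts.

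Among the 9 genes of ligand shedding and HB-EGF partners, 4 were positive and 5 negative, with a median of -0.02. CD44, a proteoglycan that can present HB-EGF, and CD9, a tetraspanin that associates with its precursor, were abundant in every library, at 606.86 to 836.62 and 103.11 to 130.70 TPM. ADAM17, a protease that releases several of these ligands, had 9.38 and 8.66 TPM in 44a and 4.72 and 16.75 and 11.66 TPM in 3.11 and 44b. Its log2 fold change was 0.48 ± 0.21 (adjusted p = 0.682 in edgeR). The joined libraries were nearly equal, at 10.88 TPM in 4.72-44a and 10.95 TPM in 3.11-44b. ADAM12, also linked to HB-EGF release, had 34.91 and 35.19 TPM against 21.89 and 31.86 TPM (-0.38 ± 0.17), and RHBDF1, which helps ADAM17 mature, had a log2 fold change of -0.24.

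Receptor inhibitors and degradation genes included 5 of 6 with a positive value (median 0.40). LRIG1, which promotes loss of ERBB receptors from the cell surface, had 6.11 and 5.25 TPM in 44a and 4.72 against 9.79 and 13.90 TPM in 3.11 and 44b. Its log2 fold change was 0.78 ± 0.23 (unadjusted p = 0.0165, adjusted p = 0.623 in edgeR). CBLB, a ubiquitin ligase that acts on activated receptors, stood at 0.59 ± 0.19 (adjusted p = 0.633). ERRFI1, which encodes the receptor inhibitor MIG6, was the 1 gene of the list with a negative value. It had 61.20 and 76.80 TPM against 46.16 and 55.55 TPM, a log2 fold change of -0.62 ± 0.20 (adjusted p = 0.633).

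Adaptors, the RAS-ERK cascade and the PI3K-AKT arm lay close to the median of all genes, at 0.03, -0.02 and -0.01, with 4 of 7, 4 of 10 and 4 of 8 positive values and no unadjusted p under 0.05. Of the adaptors, PTPN11, the phosphatase SHP2, stood at 0.35, SHC1 at -0.25 and SOS1 at 0.27. Of the cascade, MAP2K2 stood at -0.28, and of the PI3K arm PIK3R2 at -0.36 and PIK3R1 at 0.29.

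ERK feedback and response genes, which ERBB signalling can induce, had 7 positive and 7 negative values of 14 and a median of 0.01. Single genes of this list were far from 0 in both directions. EGR1, a transcription factor induced within minutes of growth factor signalling, was measured at 22.52, 34.62 and 29.77 TPM in 44a, 4.72 and 4.72-44a and 7.98, 9.37 and 7.78 TPM in 3.11, 44b and 3.11-44b. SPRY4, a feedback inhibitor of receptor signalling, had 20.56, 21.21 and 19.17 TPM against 10.40, 12.01 and 9.85 TPM. Neither gene overlapped between genotypes, with log2 fold changes of -1.88 ± 0.27 and -1.12 ± 0.16 and the same adjusted p of 0.48 in edgeR. PHLDA1 stood at 1.16 ± 0.44 (adjusted p = 0.658), with 30.66 TPM in 3.11 but 11.83 in 44b against 7.44 and 9.19 in 44a and 4.72. These genes were measured in the same clones as HBEGF, so their values are not independent of its own.

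**Figure D5:**
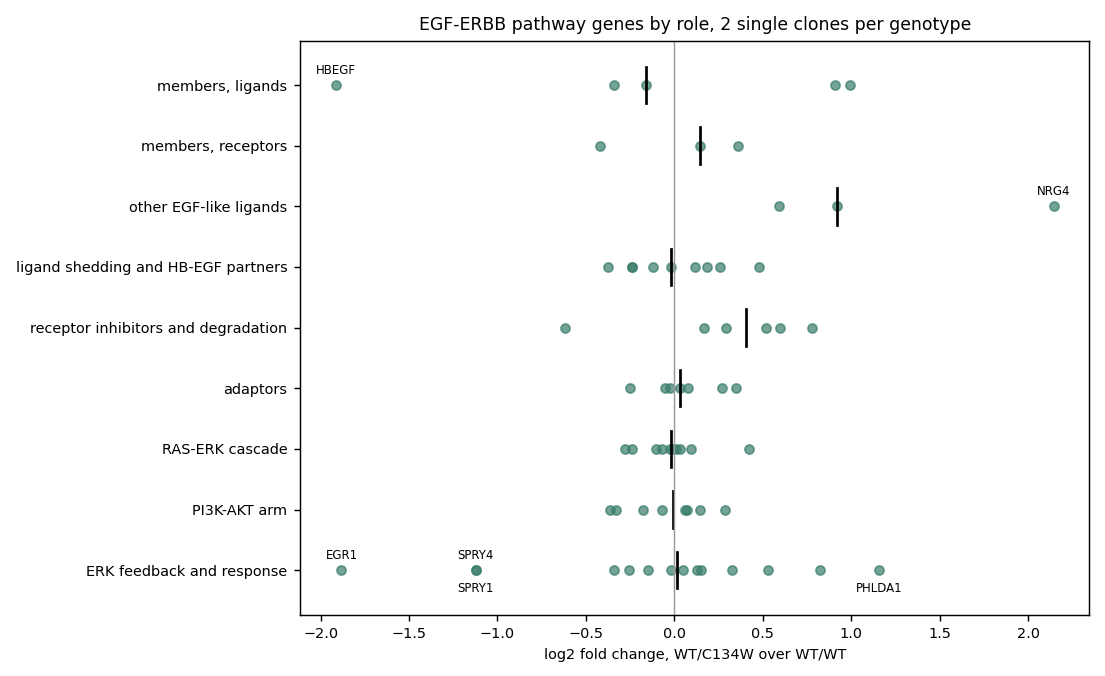
Log2 ratio of WT/C134W to WT/WT (horizontal axis) of each tested gene (points), by role in the EGF-ERBB pathway, with the median of each list as a vertical bar; genes beyond 1 in either direction are named. HBEGF (-1.91) and EGR1 (-1.88) lie far to the left of lists whose medians are between -0.16 and 0.92.

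The genes most like NRG1 and ERBB2 in profile, the ligand and the receptor with the highest mean TPM, were sought among 10252 protein-coding genes with at least 5 CPM on average. Likeness was the root mean square difference of centred log2 CPM over the 6 libraries. For NRG1 they were SRPRB (0.0302), RGS10 (0.0464), BCAR3 (0.053), ACAP3 (0.0566) and ESRRA (0.0682). For ERBB2 they were ADIPOR1 (0.0332), ZSWIM8 (0.0351), TNK2 (0.0353), SNAP29 (0.0355) and SLC12A4 (0.0368).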

How the data were processed

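Gene tables of 6 RNA-seq libraries, made per the labels' protocols with a stranded mRNA kit, were used. Per the file headers, the authors deposited RSEM's expected count, TPM and FPKM of each gene. The deposited TPM is scaled by the authors by effective length, and each library also has the gene lengths that RSEM weighted by transcript abundance. The authors' deposited FPKM values were left out. Among the tools in the submitters' processing notes are RSEM 1.3.1 and STAR 2.7.6a, as well as DESeq2 1.26.0, Picard 2.8.1 and R 3.6.3, with no roles stated, and the build listed is GRCm38 (mouse) although all gene IDs are human. Human build, annotation release and strand setting: not given in the sources used here. Symbols came from GENCODE release 29 (58216 of 58336 IDs found) and promoter sequences from RefSeq (GRCh38.p14).

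Expected counts were rounded. The test was edgeR 4.0.16 (filterByExpr, TMM factors, robust glmQLFit, glmQLFTest; R 4.3.3) on the 4 single clones, with Benjamini-Hochberg adjustment over all genes and a threshold of 0.05. The SE was derived from F (log2 fold change over the root of F), so it draws on the spread of other genes. The 15 alternatives were all 6 libraries, DESeq2 1.42.0, limma 3.58.1 voom, RLE factors, library totals, 2 other count filters, each clone left out, a block and 3 fits on log2 TPM. The edgeR, DESeq2 and voom fits were tested on simulated data. Depth limits and intervals at 0 counts cover counting error only. The members, the gene lists and the joined libraries' exclusion were chosen with earlier results of these data known. Named genes were all members, FOXL2, the 3 smallest p of each of 7 pathway lists, and 5 nearest profiles of the leading ligand and receptor. CD44, CD9, EPGN, NRG3 and the cell type markers in the text were named in addition, after their values were seen. Some genes that this rule takes are not reported here by name.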

Additional observations from a re-analysis of the deposited data

How the results depend on the processing

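In edgeR's test of the 4 single clones 0 genes were called over all genes, 0 among the members and 0 among the pathway genes. With all 6 libraries the counts were 511 (3.18% of all genes), 1 of 8 members (HBEGF) and 5 of 57 pathway genes. These 5 were CBLB, ERRFI1, EGR1, LRIG1 and SPRY4. With DESeq2 the counts were 283 (2.04%), 1 of 8 (HBEGF) and 2 of 57 (EGR1 and SPRY4). Without the low-count filter they were 664 (2.73%), 1 of 10 (HBEGF) and 3 of 57 (EGR1, PHLDA1 and SPRY4). In that fit edgeR's prior degrees of freedom, 3.71 with the filter, became infinite. Limma on log2(TPM + 0.1) called 1 gene, which was neither a member nor in the pathway lists. A block pairing 44a with 44b, whose titles share a stem, and 4.72 with 3.11 called 5 genes, 0 of them members, and gave HBEGF an adjusted p of 0.112. No label pairs them. Under the other alternatives, each clone left out included, all 3 counts were 0.

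The sign of AREG changed with library totals alone (0.05644), without 44a (0.06131) and without 3.11 (0.1871). The sign of BTC changed without 3.11 (-0.05869), that of NRG1 without 3.11 (0.02159) and that of ERBB3 without 44b (-0.6182); the cause was not tested. With 1 clone left out at a time AREG ran from -0.6257 to 0.1871, BTC from -0.05869 to 1.583, NRG1 from -0.8328 to 0.02159 and ERBB3 from -0.6182 to 0.6356. HBEGF, EREG, EGFR and ERBB2 kept their sign under every alternative that could be computed. TGFA and ERBB4 were tested only where the filter let them pass, with adjusted p-values from 0.467 to 0.999.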

Other observations

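The ratio of EGFR to ERBB2 in TPM, looked at after the values were seen, was 0.516, 0.723 and 0.669 in 44a, 4.72 and 4.72-44a, against 1.19, 0.847 and 0.816 in 3.11, 44b and 3.11-44b. The genotypes did not overlap, and EGFR exceeded ERBB2 in 3.11 alone. The ratio is formed within a library, so no scaling factor between libraries enters it.

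The ratio of HBEGF to EGFR in TPM was 0.925, 0.737 and 0.957 in the WT/WT libraries and 0.175, 0.201 and 0.186 in the WT/C134W libraries. Transcript of this ligand and of its receptor thus stood at similar levels per length in WT/WT, and the ligand was well below the receptor in WT/C134W. No test was run on either ratio, since both pairs were chosen with these values known.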
